A study of Mus musculus with 4 samples.

Results

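The genes described here are 10 transcription factor genes of the immediate-early class: the AP-1 subunits Jun, Junb, Jund, Fos and Fosb, the related factor Atf3, the early growth response genes Egr1 and Egr2, and the Krüppel-like factor genes Klf2 and Klf4. They were taken by name, with earlier results of these data known. Every probe set annotated to them was kept, which gave 14 of the 12654 probe sets and 10 of the 8220 genes measured. Atf3 was read by 3 probe sets, Junb and Egr1 by 2 each, and the other 7 genes by 1. Total RNA of mouse cells was measured on 4 Affymetrix arrays, with 1 array in each group, so no difference here has a replicate behind it and no test was made. The groups are dendritic cell progenitors from bone marrow, which the labels describe as amplified in vitro, cells differentiated from such progenitors for 7 days, cells differentiated for 10 days, and cells differentiated for 10 days that also had TNFalpha for 16 hours. Strain, age, culture medium and the number of animals or cultures behind an array are not given in the labels.

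AP-1 is a dimer of leucine zipper proteins. Jun proteins pair with each other or with Fos proteins, whereas Fos proteins do not pair with themselves, and Atf3 can pair with Jun proteins and often acts as a repressor. Egr proteins bind GC-rich sites through zinc fingers and are restrained by the Nab corepressors, and Klf proteins bind GC-rich and CACCC elements. Many genes of this class are switched on within minutes of a growth factor, cytokine or stress signal, without new protein synthesis, and fade soon after, while Jund is present in most resting cells. In the myeloid lineage, Egr factors and Klf4 are known for their part in monocyte and macrophage differentiation.

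The promoter letters of the genes that stood furthest above the progenitor at day 7 are shown first, because the results turn on these genes. They come from RefSeq windows of mouse build GRCm38.p6, in which 9 of the 10 genes had at least 1 entry (all but Egr1). Each stretch reads 5′ to 3′ on the strand of the gene. Jun lies on the minus strand and the stretch is chr4:95052223-95052472, the 250 bases before the start. Its capitals are matches to TTACCTCA and TGACATCA, known as the distal and proximal jun sites, which occur in 0.728% and 2.93% of the 32851 windows. Atf3 lies on the minus strand at chr1:191183334-191183583, and its capitals are a match to TTACGTCA, a variant of the cyclic AMP response element that 0.447% of windows hold. Klf4 lies on the minus strand at chr4:55532476-55532725, and its capitals are 2 matches, on the opposite strand, to the Egr site GCGNGGGCG, which occurs in 4.7% of windows. Egr2 lies on the plus strand and has 5 windows, of which 4 hold a CArG box, the core of the serum response element. This box occurs in 1.47% of all windows. The 2 Egr2 boxes are shown in capitals within 30 bases each, at chr10:67537484-67537513 and chr10:67537787-67537816.
Jun: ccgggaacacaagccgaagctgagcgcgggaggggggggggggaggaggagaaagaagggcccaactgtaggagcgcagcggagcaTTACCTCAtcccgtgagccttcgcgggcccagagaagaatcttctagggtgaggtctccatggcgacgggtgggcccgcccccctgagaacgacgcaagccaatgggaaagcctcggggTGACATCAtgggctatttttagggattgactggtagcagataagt
Atf3: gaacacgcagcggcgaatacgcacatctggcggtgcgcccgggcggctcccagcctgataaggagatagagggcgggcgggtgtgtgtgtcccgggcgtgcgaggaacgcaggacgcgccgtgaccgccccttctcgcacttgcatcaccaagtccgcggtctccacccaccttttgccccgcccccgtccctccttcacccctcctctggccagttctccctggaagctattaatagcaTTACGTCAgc
Klf4: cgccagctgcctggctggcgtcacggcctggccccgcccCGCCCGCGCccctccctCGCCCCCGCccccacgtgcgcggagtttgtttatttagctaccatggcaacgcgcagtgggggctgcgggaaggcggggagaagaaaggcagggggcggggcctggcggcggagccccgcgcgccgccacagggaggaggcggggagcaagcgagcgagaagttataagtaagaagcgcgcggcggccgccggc
Egr2 first box: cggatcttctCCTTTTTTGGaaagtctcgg
Egr2 other box: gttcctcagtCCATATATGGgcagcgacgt

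Both strands of the 250 bases before each start were searched, and a match is a description of letters only. The 8-letter jun and Atf3 variants were searched after the sequences had been read. The 5 letters TGACG lie within TGACGTCA and within the other strand of the Atf3 variant. They were not among the sites planned for the search. They were found for 7 of the 9 genes (all but Jun and Jund) and in 9 of the 13 windows of these genes. Of all windows 17.8% held them. A gene with several windows, such as Egr2 with 5, had more chances of a match, so the share of genes is not comparable with this. The Egr site was also found for Fosb and Klf2, and an NF-kB site, held by 3.9% of windows, for Fos and Fosb. TGACTCA (4.46% of windows) and TGACGTCA (1.55%) were found in none of the windows of the 9 genes.

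All levels are the deposited intensities after scaling each array to a common 75th percentile. Values under 105 units, the 40th percentile of all scaled values, were raised to 105 before log2 ratios were taken. A fold of a gene is given against a stricter floor of 428 units, the 60th percentile. It is written "at least" where the dimmer array lies under 428, and no fold is given where both arrays do. As a guide to error, the log2 ratios of the 2 brightest probe sets of a gene differed with an SD of 0.83 for day 7 against progenitor (671 genes), 0.85 for day 10 against day 7 (663), 1.09 for day 10 against progenitor (632) and 0.73 for TNF against day 10 (666). This SD covers disagreement between probe sets and not the spread between cultures.

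Marker genes were read against the labels. Of 8 progenitor markers 4 lay above 428 units in progenitors and 3 on each other array, and at day 7 Myb was 8.11-fold lower while Kit was 2.02-fold higher. The 14 dendritic cell markers included 4 above 428 units in progenitors and 14 on each of the other arrays, and H2-Aa, an MHC class II gene, was at -492, 20686, 100111 and 81388 units from progenitor to TNF. Among 14 granulocyte markers the summed level was 233460 units in progenitors, 141287 at day 7, 165702 at day 10 and 20800 with TNF. Their median level fell at each step, at 17800, 7208, 3442 and 582 units. S100a8 went from 23848 units at day 7 to 57731 at day 10, the 1 marker of the 14 at least 2-fold higher, while 5 were at least 2-fold lower. S100a9, Ngp and Mmp8 were also higher at day 10, by less than 2-fold. Of 9 lymphoid markers 2 lay above 428 units on each array. Pax5 was at 857, 1230, 2094 and 2134 units and Cd79b at 350, 594, 736 and 632, so Cd79b lay under 428 in progenitors. The T cell genes differed. Cd4 was at 701, 303, 42.2 and 417 units, above 428 in progenitors only. Cd3e, chosen after its values were seen, was below 0 on all 4 arrays. Of 23 genes restricted to other organs, 3 or 4 lay above 428 units. In bulk RNA, fewer cells of a type and less RNA per cell cannot be told apart.

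**Figure D1:**
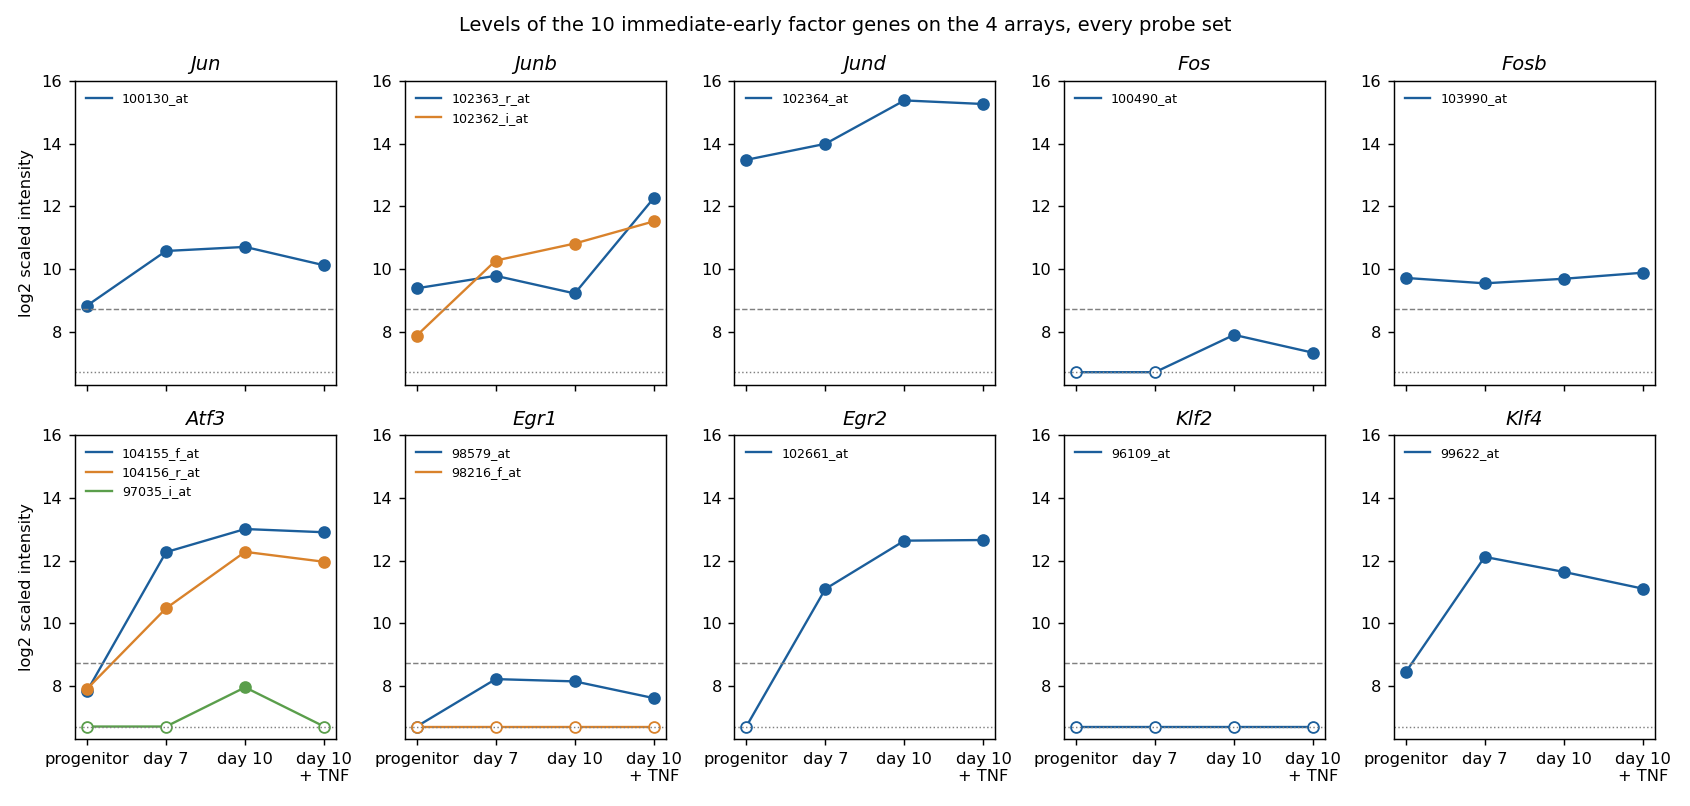
Log2 scaled intensity (vertical axis) of the 14 probe sets of the 10 genes on the 4 arrays (horizontal axis), 1 array per point, with filled points above the floor of 105 units (dotted line), open points drawn at it, and the dashed line at 428 units. Egr2, Atf3 and Klf4 climb away from the progenitor, Fosb stays flat, Klf2 never leaves the floor, and the Junb probe sets separate.

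Among the Jun family, Jun, the founding AP-1 subunit, was at 456 units in progenitors, 1529 at day 7, 1673 at day 10 and 1114 with TNF. The progenitor array was the lowest, and the steps from day 7 to day 10 and from day 10 to TNF lay within the probe-set disagreement. Jund, the subunit that most resting cells hold, was at 11473, 16344, 42688 and 39423 units in the same order. It was bright on all arrays and brighter on both day 10 arrays. Its 42688 units exceeded the brightest probe set of the progenitors (41044 units) and that of the day 7 cells (30560 units). Maxima among the day 10 cells were 137313 units without TNF and 89121 units after it. The part of this difference in range in the Jund rise was not tested.

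Junb, an AP-1 subunit known as a weaker activator than Jun, was read differently by its probe sets. The brighter, 102363_r_at, was at 670, 883, 598 and 4931 units, so only the TNF array stood apart. The other, 102362_i_at, was at 235, 1236, 1803 and 2943 units, a climb over all 4 arrays. Their log2 ratios differed by more than 1 in every comparison and had opposite signs for day 10 against day 7 (-0.56 and 0.54) and for day 10 against progenitor (-0.16 and 2.94). Both placed the TNF array highest. The suffixes of both names mark probe sets for which the usual rules of probe choice were not all met.

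Of the Fos family, Fos, the partner of Jun in classical AP-1, stayed dim. It was at 35.0 units in progenitors, 3.85 at day 7, 239 at day 10 and 161 with TNF, under 428 on every array, and above 105 on the day 10 arrays only. No fold can be given for it. Fosb, a Fos relative, was at 842, 748, 827 and 945 units, and its most distant arrays differed less than the probe-set disagreement.

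Atf3, a stress-induced factor, had 2 probe sets with a clear signal and 1 near the floor. Probe set 104155_f_at, whose name marks it as shared within a gene family, was at 229, 4955, 8262 and 7691 units. Probe set 104156_r_at was at 240, 1431, 4988 and 4002 units, and 97035_i_at at 59.7, 83.5, 249 and 81.8. Both brighter probe sets were highest at day 10 and lowest in progenitors, and 97035_i_at was above 105 units at day 10 alone. The brighter pair disagreed in size, with log2 ratios of 4.44 and 2.57 for day 7 against progenitor and 0.74 and 1.80 for day 10 against day 7. The third lay under 428 units throughout, and its log2 ratio of 1.25 for day 10 against progenitor was far under the 5.17 and 4.37 of the others.

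Egr2, a zinc finger factor of the early growth response family, was at 58.0 units in progenitors, 2197 at day 7, 6387 at day 10 and 6478 with TNF. The progenitor array was under the floor, day 7 lay between, and both day 10 arrays were level. Egr1, its relative and a standard early marker of growth factor signals, was at 92.9, 299, 284 and 196 units by 98579_at. Those values lie under 428, so no fold is given. The other Egr1 probe set, 98216_f_at, was below 0 on all arrays.

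Klf4, a regulator of monocyte differentiation, was at 347 units in progenitors, 4461 at day 7, 3202 at day 10 and 2211 with TNF. It was the only gene of the 10 whose brightest probe set peaked at day 7 above 428 units. Its values at day 7, day 10 and with TNF followed each other downward by steps within the probe-set disagreement. Klf2, a factor linked to cell quiescence, was at -533, -269, -409 and -840 units. A value below 0 gives no level, and the order of these numbers has no meaning.

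The first comparison asks how the factors differed between progenitors and cells after 7 days. Atf3, Klf4, Egr2 and Jun stood well above the progenitor, and no member was at least 2-fold lower. Atf3 was at least 11.6-fold higher by its brightest probe set, Klf4 at least 10.4-fold, Egr2 at least 5.13-fold and Jun 3.35-fold. By 104156_r_at Atf3 was at least 3.34-fold higher, and 97035_i_at had no measure. Of 5957 genes tested, each by its brightest probe set, Atf3 ranked 21st from the top by log2 ratio, Egr2 22nd and Klf4 39th. Jund was 1.42-fold higher and Fosb 1.13-fold lower, both within the probe-set disagreement, and Junb was 1.32-fold higher by its brighter probe set and at least 2.89-fold by the other.

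Of the 10 genes 8 were above 105 units on at least 1 of these arrays. Of these, 5 were at least 2-fold higher, the fifth being the dim Egr1 (log2 ratio 1.51), and 0 lower, where 13.4% of all genes tested were higher and 11.9% lower. At the floor of 428 units 4 of 7 were higher and 0 lower, against 10.5% and 9.72% of genes. The median log2 ratio was 1.63 over the 8 genes and -0.04 over all genes tested. Fos and Klf2 had no measure here. Beside these values, 12 of 14 dendritic cell markers were at least 2-fold higher and 1 lower (Flt3). Of 14 macrophage markers 9 were higher and 3 lower, the complement genes C1qa, C1qb and C1qc. Of 14 granulocyte markers 1 was higher and 5 lower. Their part in the values of the 10 genes was not tested.

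**Figure D2:**
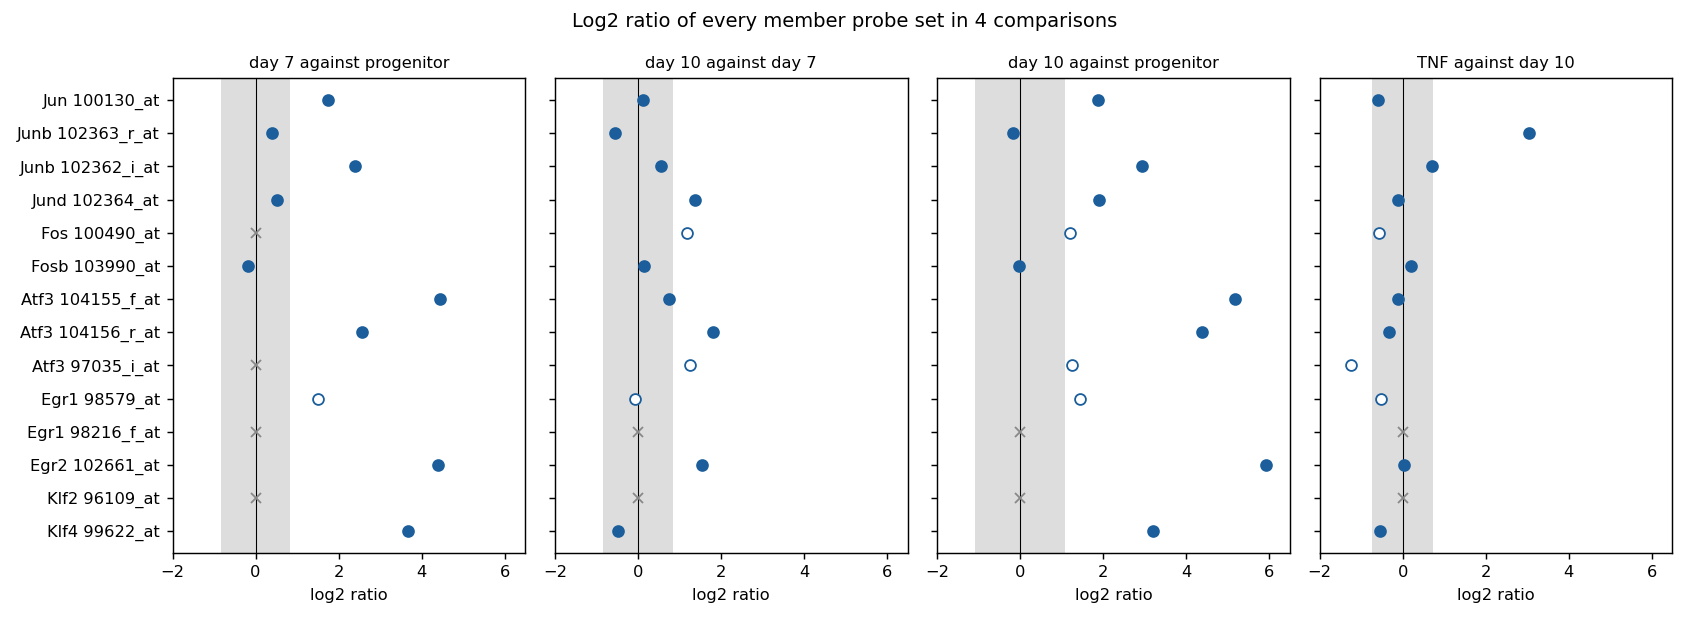
Log2 ratio (horizontal axis) of each of the 14 probe sets in the 4 comparisons, 1 array against 1 array, with the grey band at plus and minus the SD of the difference between probe sets of a gene (0.83, 0.85, 1.09 and 0.73). Open circles lie under 428 units on both arrays and crosses under 105 on both, where 0 is no measure. The Junb pair is far apart in the last panel, at 3.04 and 0.71.

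Other families of the same pathways, listed by textbook membership but with earlier results of these data known, gave context at day 7. Of 18 tested AP-1, ATF, CREB and MAF factors outside the 10, 6 were higher and 2 lower, with a median log2 ratio of 0.62. Atf5, a factor of the ATF family, was 8.50-fold higher, at 485 and 4120 units. Batf3, needed for a subset of dendritic cells, was 3.56-fold higher, at 513 and 1828 units. Ddit3, which encodes the stress factor CHOP, was at least 3.15-fold higher, and Bach1, a repressor of haem-responsive genes, 2.73-fold.

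The Egr corepressor gene Nab2, itself known as an Egr target, was at least 2.97-fold higher, at 174 and 1271 units, while Nab1 differed by 1.16-fold. Of 11 tested Klf and Sp genes 3 were higher and 2 lower (median 0.29). Klf10 and Klf6 were 2.91-fold and 2.68-fold higher, and Klf5 and Klf9 at least 3.78-fold and 2.91-fold lower. Members of the Klf family thus differed in both directions.

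Of 23 tested immediate-early genes of other families 8 were higher and 1 lower (median 0.22). Sgk1, a kinase gene, was 10.9-fold higher, Btg1, an antiproliferative gene, 5.87-fold, and the cytokine signalling inhibitor Socs3 at least 4.87-fold. Per1, a clock gene, was at least 4.94-fold lower. Of 15 tested genes reported as AP-1 or Egr targets 8 were higher and 1 lower (median 1.18), among them Itgax, which encodes CD11c (at least 14.5-fold), Icam1 (at least 5.0-fold), the cell cycle inhibitor gene Cdkn1a (4.96-fold) and Mmp9 (at least 3.16-fold). Itgax also stands in the dendritic cell list.

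The kinases upstream of AP-1 differed little. Of 12 tested, 1 was higher, Map3k8, which activates the ERK pathway (at least 2.65-fold), and 0 lower, and the median was 0.29. Map3k1, which feeds the JNK pathway, was 1.96-fold higher, at 1575 and 3089 units. Mapkapk2, a kinase downstream of p38, was 1.53-fold lower and Mapk14, which encodes p38 alpha, 1.46-fold lower. None of 4 tested genes for ternary complex factors and serum response cofactors differed 2-fold.

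Between day 7 and day 10 the question is how the factors differed later in differentiation. Egr2 was 2.91-fold higher and Jund 2.61-fold higher, and no member was at least 2-fold lower. Atf3 was 1.67-fold higher by its brightest probe set and 3.49-fold by 104156_r_at. Jun and Fosb differed by 1.09-fold and 1.11-fold, and Klf4 was 1.39-fold lower, all within the probe-set disagreement. Junb was 1.48-fold lower by its brighter probe set and 1.46-fold higher by the other. The dim Fos had a log2 ratio of 1.19 with no fold, and Egr1 one of -0.07.

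Of 9 members tested, 3 were at least 2-fold higher (Jund, Fos and Egr2) and 0 lower, against 11.2% and 8.44% of 6123 genes. At 428 units 2 of 7 were higher and 0 lower, against 7.26% and 4.65%. The median log2 ratio was 0.14 over the 9 and 0.06 over all genes. The ratios of Jund and Egr2, 1.39 and 1.54 on the log2 scale, have to be read beside the controls. The 9 probe sets for bacterial transcripts added to the samples were all brighter at day 10, by a median of 1.5 on the log2 scale (1.20 to 1.77), and 219 probe sets with a mean above 16384 units were brighter by a median of 1.18. Of 7 housekeeping genes tested 4 were at least 2-fold higher and 0 lower, with a median of 1.95, and Actb, which encodes beta-actin, was 26.5-fold higher. Both the Jund and the Egr2 ratio lie inside the range of the bacterial probe sets. After quantile normalization the Jund ratio was 0.39 and that of Egr2 1.45. Quantile normalization took Jund out of the genes counted as higher. The part of the shift in the controls in the Jund and Egr2 values was not tested.

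In the other lists, Ddit3 was 4.45-fold higher and the small Maf gene Mafk at least 3.67-fold, while Nfe2, a factor of the megakaryocyte and erythroid lineages, was 2.88-fold lower. Of 17 tested AP-1 relatives 2 were higher and 1 lower. Nab1 was 2.11-fold lower and Nab2 1.32-fold higher. Klf9 was at least 2.32-fold higher, and Sp3 and Sp1, which bind the same GC-rich elements as Klf factors, were 2.58-fold and 2.11-fold lower. None of 12 tested upstream kinases was at least 2-fold higher and 1 lower, Mapk8, which encodes JNK1, with a log2 ratio of -1.09. Of 23 immediate-early genes 3 were higher and 0 lower (median 0.47): Per1 (at least 2.68-fold), Socs3 (2.66-fold) and Plk2 (2.22-fold), a polo-like kinase gene. Between the same arrays, 8 of 14 dendritic cell markers were higher and 0 lower (median 1.28), and 4 of 11 tested macrophage markers higher and 0 lower. Of 14 granulocyte markers 5 were lower and 1 higher. The part of these markers in the values of the 10 genes was not tested.

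**Figure D3:**
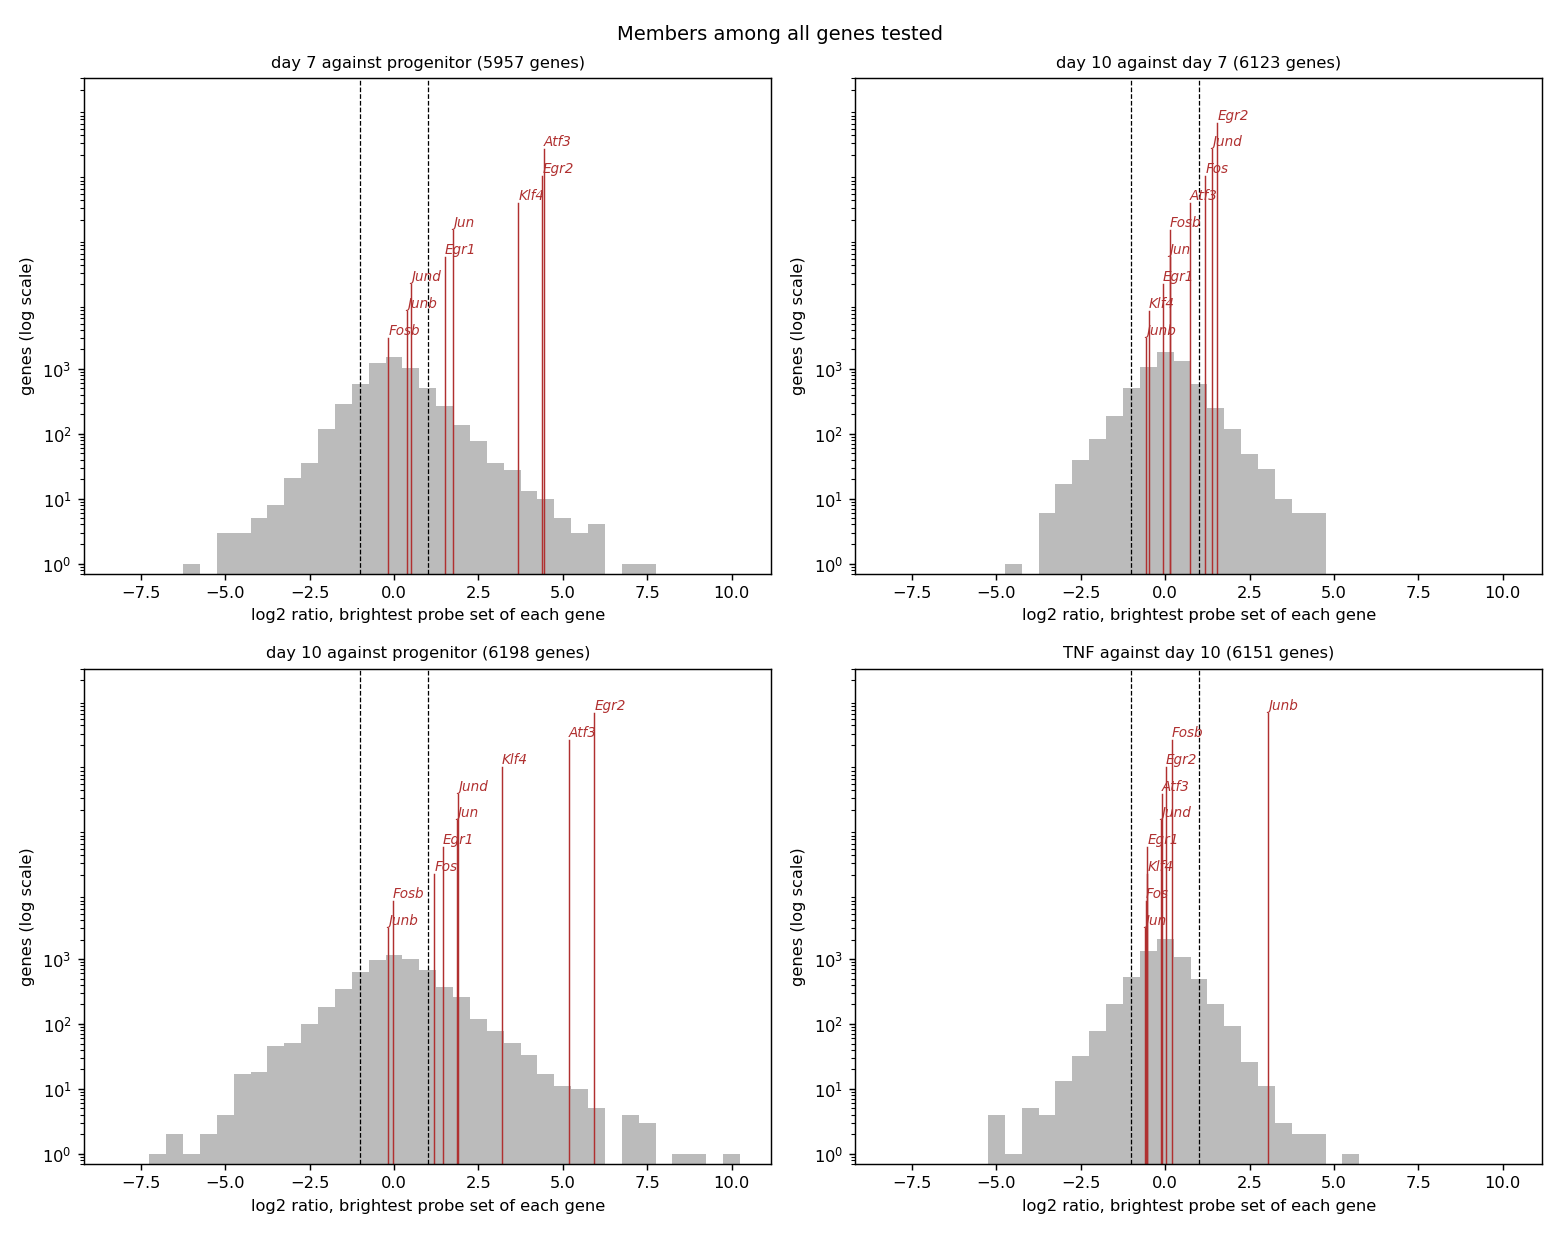
Distribution of log2 ratios over all genes tested in each comparison, as grey bars with the number of genes on a log axis, and the members as labelled red lines whose height carries no value. Dashed lines mark 2-fold. At day 7 Atf3, Egr2 and Klf4 lie in the upper tail, and with TNF Junb alone of the members lies beyond 2-fold.

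Day 10 set directly against progenitors shares the progenitor array with the first comparison and the day 10 array with the one before, so it is no separate evidence. Atf3 was at least 19.3-fold higher by its brightest probe set, Egr2 at least 14.9-fold, Klf4 at least 7.48-fold, Jund 3.72-fold and Jun 3.66-fold. By 104156_r_at Atf3 was at least 11.7-fold higher, and the dim 97035_i_at had a log2 ratio of 1.25. The Jund log2 ratio of 1.90 became 1.22 after quantile normalization, and the 9 bacterial probe sets had a median of 1.18. Fosb differed by 1.02-fold. Junb was 1.12-fold lower by its brighter probe set and at least 4.21-fold higher by the other. Of 9 members tested 7 were at least 2-fold higher, the dim Fos and Egr1 included, and 0 lower, against 20.4% and 16.8% of 6198 genes. At 428 units 5 of 7 were higher and 0 lower, against 17.3% and 14.8%. These counts use the brightest probe set. With the mean over probe sets 8 members were higher, Junb included, against 19.7% of genes. Egr2 ranked 14th and Atf3 26th from the top of all genes tested. Between these arrays 13 of 14 dendritic cell markers were higher and 1 lower, 9 of 14 macrophage markers higher and 3 lower, and 2 of 14 granulocyte markers higher and 6 lower. Their part was not tested.

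Over this whole span, Ddit3 was at least 14-fold higher, Atf5 4.53-fold and Batf3 4.49-fold, and Nfe2 4.88-fold lower. Of 17 tested AP-1 relatives 7 were higher and 3 lower. Nab2 was at least 3.92-fold higher. Of 10 tested Klf and Sp genes 3 were higher and 2 lower, with Klf10 at 3.34-fold, Klf6 at 2.45-fold and Klf5 at least 3.78-fold lower. Of 23 immediate-early genes 9 were higher and 2 lower, with Sgk1 17.4-fold and Gadd45b, a stress gene, 5.38-fold higher. Mapk14 was 2.17-fold lower and Map3k1 2.48-fold higher, although the 2 other Map3k1 probe sets had log2 ratios of -0.08 and 0.79.

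The last comparison asks which of the factors differed after TNF for 16 hours. Junb was 8.25-fold higher by its brighter probe set, at 598 and 4931 units, and ranked 12th of 6151 genes. By its other probe set it was 1.63-fold higher, at 1803 and 2943 units, so the direction is shared and the size is not settled. Egr2 (1.01-fold), Atf3 (1.07-fold by its brightest probe set), Jund (1.08-fold) and Fosb (1.14-fold) differed by less than the probe-set disagreement. Jun had a log2 ratio of -0.59 and Klf4 one of -0.53, also inside it. The 9 bacterial probe sets had a median log2 ratio of -0.50 between these arrays (-0.88 to -0.33), and 237 probe sets with a mean above 16384 units one of -0.15. The part of this shift in the values of the 10 genes was not tested. The Atf3 probe sets disagreed here. The log2 ratio was -0.10 by 104155_f_at and -0.32 by 104156_r_at, but -1.25 by the dim 97035_i_at, which lay under 428 units on both arrays.

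Of 9 members tested 1 was at least 2-fold higher and 0 lower, where 8.84% of genes were higher and 8.76% lower, a share of members close to the background. At 428 units 1 of 7 was higher and 0 lower, against 4.71% and 5.15%. The median log2 ratio was -0.11 over the 9 and -0.04 over all genes. Fos and Egr1 stayed under 428 units, with log2 ratios of -0.57 and -0.53. The sign of the small Jund ratio, -0.11, turned to 0.02 after quantile normalization. Beside these values, 9 of 14 granulocyte markers were at least 2-fold lower with TNF and 0 higher, with Ngp, a neutrophil granule gene, 33.2-fold lower at 831 units. Of 14 dendritic cell markers 6 were higher and 0 lower, and of 11 tested macrophage markers 0 were higher and 2 lower. The part of such shifts in the Junb value was not tested.

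Among other immediate-early genes, the 4 with the largest ratios at the floor of 428 units were higher with TNF, and Nfkbia and Tnfaip3 among them are known NF-kB targets. Nfkbia, which encodes the NF-kB inhibitor, was 3.41-fold higher, Plk2 3.29-fold, Tnfaip3, which encodes A20, 3.06-fold, and Zfp36l1, an mRNA decay factor gene, 2.31-fold. Next after them came Cited2, 2.14-fold lower. At the floor of 105 units the largest ratio was that of Bcl3, an NF-kB cofactor gene, with a log2 ratio of 3.05 and levels of -513 and 870 units, at least 2.03-fold higher. Cited2 and Bcl3 were chosen after their values were seen. That list held 25 tested genes, 7 of them higher and 1 lower (median 0.12). Among target genes 4 of 15 were higher and 1 lower, with Icam1 5.12-fold higher, Il1b at least 5.03-fold higher and Mmp9 at least 3.24-fold lower.

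Of 17 tested AP-1 relatives 3 were higher and 3 lower with TNF. Batf3 was 2.39-fold higher, at 2305 and 5511 units, while Mafg was 3.59-fold lower, Atf5 2.35-fold and Nfe2 at least 2.26-fold. The other Mafg probe set had a log2 ratio of -0.27. Nab2 was 2.08-fold lower and Nab1 1.54-fold higher. None of 10 tested Klf and Sp genes and none of 12 upstream kinases differed 2-fold, with Sp1 1.75-fold and Map2k2, an ERK pathway kinase gene, 1.51-fold higher. Of 4 tested genes of the serum response group 2 were higher and 1 lower, all but Mrtfa and Elk4 under 428 units on both arrays.

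**Figure D4:**
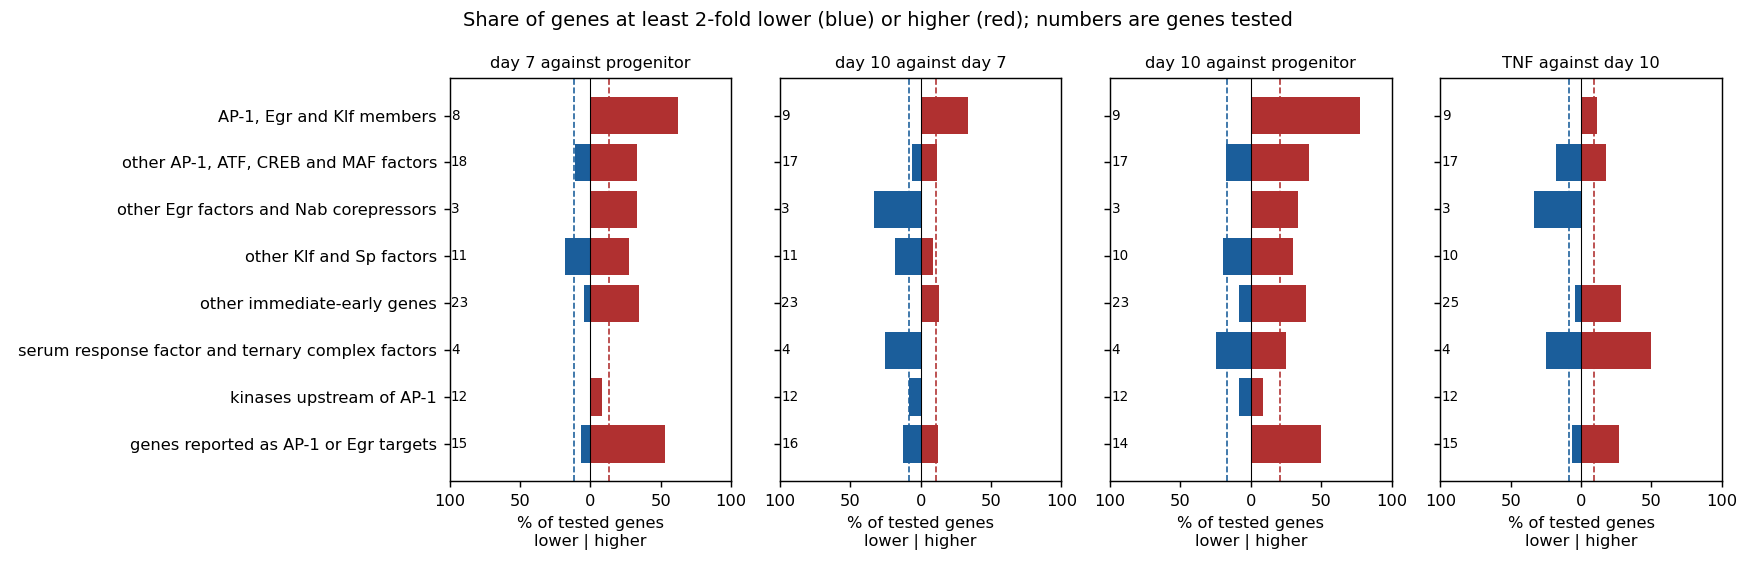
Share of tested genes at least 2-fold lower (blue, to the left) or higher (red, to the right) in the 10 genes and in related lists for each comparison, with the number of genes tested at the left edge and the share over all genes as dashed lines. Bars over 3 or 4 genes rest on single genes.

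The profiles of the 7 members above 428 units on at least 1 array were also set against each other. Each was centred on its own mean over the 4 arrays at the 428-unit floor, and the root mean square difference was taken on the log2 scale. The closest pair was Atf3 and Egr2, at 0.44, followed by Jun and Klf4 at 0.59. The most distant were Fosb and Atf3, at 1.75, and Junb and Atf3, at 1.70. Within the Jun family, Jun and Jund differed by 0.64, Junb and Jund by 1.14, and Junb and Jun by 1.39. The nearest member to Jund was Jun and the nearest to Junb was Jund, while Jun was nearer to Klf4.

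The same measure was used to find the most similar profiles among 4736 other genes. With 4 points, and values under 428 units raised to that floor, close matches are easily had. For Jun the nearest was Nr1h3, which encodes the liver X receptor alpha (0.05), at 116, 1417, 1434 and 984 units, followed by Lpin1 (0.06) and Apobec1 (0.07). For Egr2 it was the cathepsin gene Ctss (0.12), then Lgals3bp (0.16) and Gpr137b (0.18). For Atf3 it was Sgk1 (0.11), then Gpr137b-ps (0.16) and Mgll (0.25).

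For Klf4 the nearest profile was that of the chemokine gene Ccl3 (0.26), at 462, 5654, 2613 and 2795 units, followed by Lipa (0.27) and Dab2 (0.29). For Jund it was the lipid transfer gene Pltp (0.08), then Psd (0.09) and Hoxa4 (0.11). For the brighter Junb probe set it was Il1b, a cytokine gene (0.29), at -113, 305, 78.4 and 2153 units, followed by Acod1 (0.36) and Olr1 (0.36). Fosb spanned less than 2-fold over the arrays and was not matched.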

How the data were processed

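Total RNA of 4 samples was measured on 1 array each. The authors deposited linear intensities for each probe set, and for the software and scaling behind them the sources used here give nothing. Between 22.8% and 24.3% of the values on an array are below 0. Gene names came from GEO's platform annotation, updated by Entrez gene number. Of 12654 probe sets, 10298 had 1 symbol, 363 several and 1993 none, and those with several or none were left out, as were control probe sets. The brightest probe set by mean stood for a gene (8220 genes). Arrays were scaled to a common 75th percentile by factors of 0.962 to 1.05, floored at the 40th or 60th percentile of all scaled values (105 and 428 units), and compared as log2 ratios. A gene was tested where it lay above the floor on at least 1 of 2 arrays.

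The 10 genes and all lists were chosen with earlier results of these data known. All 10 were named, as were up to 4 genes with the largest ratio in each related list and the 3 nearest profiles of a member. Cd3e, which that rule does not name, was chosen after its values were seen. Klf1 and Itgax stand in 2 lists. Calculations used Python 3.11.15, numpy 2.4.6 and pandas 2.3.3, and calls were checked on simulated arrays. Precision is limited by the number of arrays. Alternatives were the values as deposited, quantile normalization, the 60th percentile floor, 3-fold and 1.5-fold rules, the mean over probe sets, and leaving out probe sets marked as shared or incomplete.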

Additional observations from a re-analysis of the deposited data

How the results depend on the processing

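The 8 counts of members higher or lower were recomputed under 7 alternatives, and 53 of 56 values stayed within 1.5 times the main count. With a 3-fold rule 0 members were higher at day 10 than at day 7, in place of 3, against 4.7% of all genes tested. Without probe sets marked as shared or incomplete, which leaves out Junb and Atf3, 0 members were higher with TNF, in place of 1, against 8.65%. With a 1.5-fold rule 1 member, Jun, was lower with TNF, in place of 0, against 19.2%. The first and last follow from the changed rule, and the other from the genes left out. Members lower had a main count of 0 in every comparison, where staying within 1.5 times means staying at 0. The 3-fold rule and the floor of 428 units could not raise such a count. Of 160 log2 ratios of single members under alternatives, 9 moved by more than the probe-set disagreement and 0 ratios of at least 2-fold turned sign. Many of the 160 could not move. For a gene with 1 probe set the mean over probe sets is the main value. The floor of 428 units changes nothing where both arrays lie above it. As the mean over probe sets, the Junb log2 ratio was 1.40 at day 7 against progenitor (0.40 in the main setting), 1.39 at day 10 against progenitor (-0.16) and 1.88 with TNF (3.04). At the floor of 428 units the day 7 against progenitor ratio was 2.36 for Egr2 (4.39) and 3.53 for Atf3 (4.44), since the progenitor values lie under it. The median log2 ratio of all genes between day 10 and day 7 was 0.06 in the main scaling and -0.06 in the values as deposited, and between day 10 and progenitor 0.07 and -0.05 (-0.04 after quantile normalization). Signal over background limits Fos, Egr1 and Klf2, for which no change can be shown or denied. No paired analysis was possible because each group has 1 array.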

Other observations

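Some genes of the related lists were highest in progenitors, where Egr2 and Atf3 were lowest. They were chosen after their values were seen. Cited2, which encodes a transcriptional coregulator, was at 12263 units in progenitors, 6632 at day 7, 3835 at day 10 and 1789 with TNF. Rhob, a small GTPase gene often counted among immediate-early genes, was at 7466, 6327, 5051 and 2963 units, and Myc, a growth regulator, at 1723, 950, 710 and 368. Nfe2 was at 4724, 2789, 967 and 165 units, and Klf5 at 1618, 277, 205 and 29.5. Each of these 5 genes was lower on each array than on the one before it in that order. Klf5 on all arrays but the progenitor, and Myc and Nfe2 with TNF, lay under 428 units. Several steps, such as those of Rhob up to day 10, lay within the probe-set disagreement. Btg1 and Gadd45b were higher on each array than on the one before, at 1510, 8871, 10581 and 18614 units and at 931, 3184, 5005 and 10062. Their steps from day 7 to day 10 also lay within that disagreement.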
